A study of Mus musculus with 6 samples.

Results

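The Fc receptors for immunoglobulin G were examined in macrophages sorted from injured mouse muscle. The genes were chosen by name: Fcgr1, Fcgr2b, Fcgr3, Fcgr4, Fcer1g and Fcgrt, each taken where a probe set carried its symbol alone. Of these 6 genes, 5 had such a probe set, 1 each, among 19938 genes in all. Fcgrt, which encodes the neonatal Fc receptor, was not analysed here. Muscle was injured by an injection of cardiotoxin, a snake venom toxin that kills muscle fibres, into the tibialis anterior, and the cells were collected on day 2. All animals were of the strain B6.129P2-Lyzstm1(cre)Ifo/J, in which Cre recombinase is carried at the lysozyme locus that is active in myeloid cells, and the labels name no second allele, age or untreated group. Blood-lineage cells carrying CD45 were enriched on magnetic beads, and antibody staining then gave a Ly6C+ F4/80low gate and a Ly6C- F4/80high gate. Each of 3 mice gave both subsets, with 1 array per sample. The comparison asks how these subsets differ within the same injured muscle.

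Fc receptors bind the constant part of antibodies and so tie antibody-coated particles to the cell. The activating receptors Fcgr1, Fcgr3 and Fcgr4 bind ligand themselves but signal through a shared partner, the FcR gamma chain encoded by Fcer1g, whose tyrosine motif (ITAM) is phosphorylated by Src kinases and recruits the kinase Syk. Fcgr2b carries an inhibitory motif (ITIM) in its own tail, recruits the lipid phosphatase encoded by Inpp5d, and raises the threshold for uptake and cytokine release. Macrophages and monocytes carry both kinds, and the balance between them is known to set the response to immune complexes.

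Promoter stretches of the 4 IgG-binding receptors are shown so that the 2 receptors called between the subsets and those not called can be read side by side. Each is the 150 bases before the gene start in the RefSeq table of build GRCm38.p6, 5′ to 3′ on the strand of the gene, and all 6 genes had an entry. For Fcgr3 2 starts are listed, and the stretch before the more downstream one is given. Capitals mark matches to GAGGAAG, the core of sites for the myeloid factor PU.1, to TTCNNNGAA, the form bound by STAT factors, or to GAAANNGAA, the core of the form bound by interferon regulatory factors. Both strands were searched, and no match overlapped another.
Fcgr1, chr3:96293970-96294119, minus strand: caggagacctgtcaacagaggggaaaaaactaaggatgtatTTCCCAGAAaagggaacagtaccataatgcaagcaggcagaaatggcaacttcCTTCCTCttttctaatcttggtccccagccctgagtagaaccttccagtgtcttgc
Fcgr4, chr1:171018776-171018925, plus strand: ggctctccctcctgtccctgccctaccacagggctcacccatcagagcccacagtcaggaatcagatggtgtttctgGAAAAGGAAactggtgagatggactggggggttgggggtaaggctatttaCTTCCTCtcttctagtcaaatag
Fcgr3, chr1:171059395-171059544, minus strand: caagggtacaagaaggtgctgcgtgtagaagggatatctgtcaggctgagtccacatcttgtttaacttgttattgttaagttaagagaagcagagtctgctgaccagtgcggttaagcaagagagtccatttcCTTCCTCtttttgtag
Fcgr2b, chr1:170976072-170976221, minus strand: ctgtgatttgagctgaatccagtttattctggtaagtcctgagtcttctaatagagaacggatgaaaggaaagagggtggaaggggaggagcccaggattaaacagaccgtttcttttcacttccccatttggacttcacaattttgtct
GAGGAAG was matched once each in Fcgr1, Fcgr3 and Fcgr4, on the strand opposite the gene, and lay 56 to 50, 16 to 10 and 23 to 17 bases before the start. It occurred in 6.85% of the 32851 promoter stretches of this length. TTCNNNGAA was matched in Fcgr1 alone among the 6 genes, 109 to 101 bases before the start, against 4.09% of all stretches. GAAANNGAA was matched in Fcgr4 alone, 73 to 65 bases before the start, against 3.95% of all stretches. The stretches of Fcgr2b, Fcer1g and Fcgrt held none of these letters. These matches describe the sequence only, and binding was not measured.

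The arrays were alike within each subset, with correlations of 0.990 to 0.993 across probe sets, against 0.979 to 0.982 between subsets. All values are log2 expression values that the authors deposited, and the number of arrays limits their precision. Background was set at 5.44, the 95th percentile of the mean levels of 1190 olfactory and vomeronasal receptor genes. Differences are on the log2 scale, over 3 arrays a subset, and a negative one means less in the Ly6C- F4/80high cells. A gene is called at a limma adjusted p under 0.05 over all 19938 genes. Shares given for all genes include weak ones. With the 50% of genes of lowest level left out of the fit, 5720 of 9969 were called, 3791 higher and 1929 lower. The shared probe sets of Ly6c1 and Ly6c2 differed by -3.39 and -3.18 and Adgre1, the gene of the other sorting antigen, by 0.73, in the directions of the gates. Levels of different probe sets depend on their probes, so no gene's level is set against another's.

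All 5 measured Fc receptor genes were well above background on every array, and the differences between the subsets were small. Fcgr4 and Fcgr1 were called, and were 1.30-fold and 1.22-fold lower in the Ly6C- F4/80high cells. Fcgr2b, Fcgr3 and Fcer1g were not called. Thus 2 of 5 genes were called lower and 0 higher, beside 14.3% of all genes called lower, 19.5% called higher and 33.8% called in either direction. The median difference was -0.18 over the 5 genes and -0.06 over all genes. In bulk samples, fewer cells with a transcript and less of it per cell cannot be told apart.

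**Figure D1:**
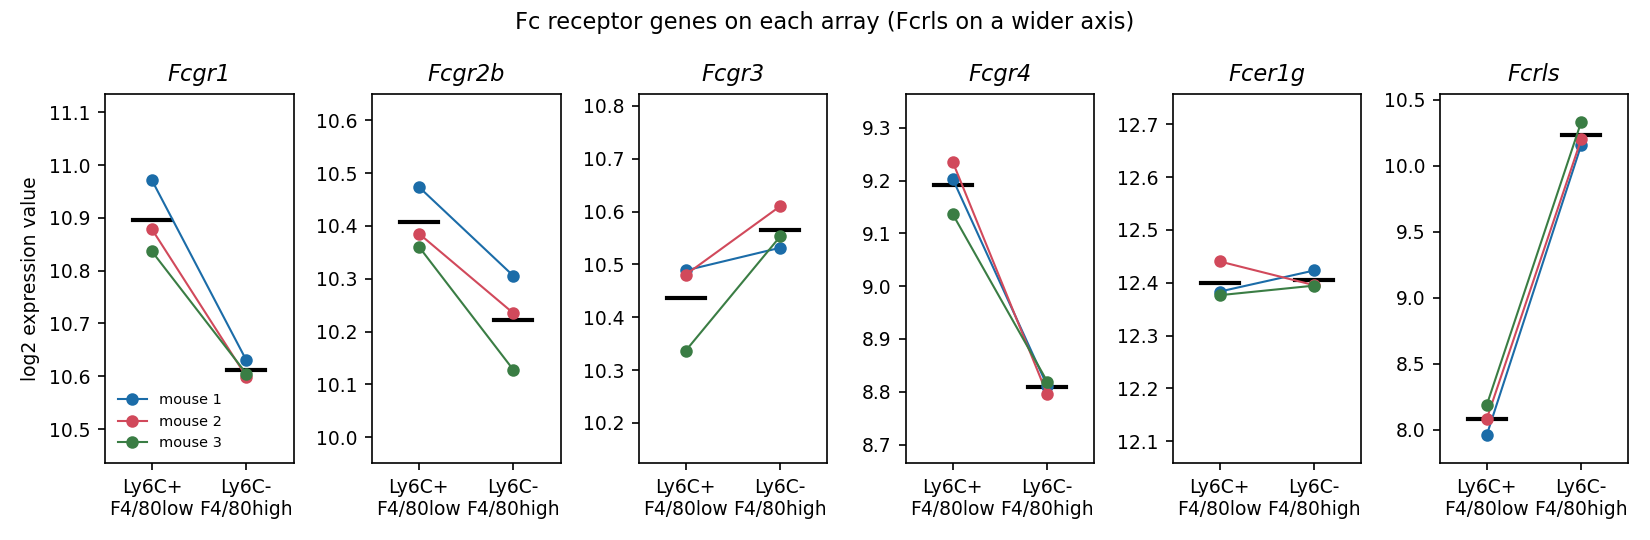
Log2 expression value (vertical axis) of the 5 Fc receptor genes and of Fcrls in the Ly6C+ F4/80low and Ly6C- F4/80high arrays; lines join the arrays of 1 mouse, black bars are subset means, and the axis of Fcrls is wider than the others. Fcgr1, Fcgr2b and Fcgr4 lie lower and Fcgr3 higher on every Ly6C- F4/80high array, Fcer1g overlaps, and Fcrls is 4.44-fold higher.

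Fcgr1 encodes the high-affinity receptor for IgG (CD64), which is widely used to mark macrophages. It stood at 10.97, 10.88 and 10.84 in the Ly6C+ F4/80low cells of mice 1, 2 and 3. In the Ly6C- F4/80high cells of the same mice it stood at 10.63, 10.60 and 10.61. Every Ly6C- F4/80high array lay below every Ly6C+ F4/80low array, and the Ly6C- F4/80high arrays spread less. The means were 10.61 ± 0.02 and 10.90 ± 0.07 (SD, n = 3), a difference of -0.28 (SE 0.07, 95% interval -0.45 to -0.12, limma adjusted p = 0.0145). The call was lost when any 1 mouse was left out, with limma adjusted p = 0.0927, 0.0613 and 0.0674 without mice 1, 2 and 3. The difference was then -0.26, -0.29 and -0.31.

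Fcgr4 encodes an activating receptor of intermediate affinity that monocytes and macrophages carry. Its levels in the Ly6C+ F4/80low cells of mice 1, 2 and 3 were 9.20, 9.23 and 9.14. Its levels in the Ly6C- F4/80high cells were 8.81, 8.79 and 8.82. The subsets did not overlap, and the Ly6C- F4/80high arrays lay the closer together. The means were 8.81 ± 0.01 and 9.19 ± 0.05 (SD, n = 3), a difference of -0.38 (SE 0.07, 95% interval -0.54 to -0.22, limma adjusted p = 0.00249). Fcgr4 was called under all 20 alternatives that were run, with differences from -0.51 to -0.35. Its difference was larger in size than that of 79.1% of all genes.

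Fcgr3 encodes the low-affinity activating receptor (CD16). It stood at 10.49, 10.48 and 10.34 in the Ly6C+ F4/80low cells of mice 1, 2 and 3 and at 10.53, 10.61 and 10.55 in the Ly6C- F4/80high cells. The arrays did not overlap and the direction was the opposite of that of Fcgr1 and Fcgr4. The difference was 0.13 (SE 0.08, 95% interval -0.04 to 0.30) and was not called (limma adjusted p = 0.218). At the ends of this interval Fcgr3 would be 1.03-fold lower or 1.23-fold higher. Cyclic loess normalization gave 0.07 and leaving out single arrays or mice gave 0.08 to 0.17, all positive and none called.

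Fcgr2b encodes the inhibitory receptor (CD32). Its levels were 10.47, 10.39 and 10.36 in the Ly6C+ F4/80low cells of mice 1, 2 and 3 and 10.31, 10.23 and 10.13 in the Ly6C- F4/80high cells. The subsets did not overlap, so the value was lower in the Ly6C- F4/80high cells in 3 of 3 mice. The difference of -0.18 (SE 0.08, 95% interval -0.36 to -0.01) was not called over all genes (limma adjusted p = 0.101). It was called after cyclic loess normalization (-0.25, limma adjusted p = 0.0394), with a trended robust prior (adjusted p = 0.0410) and without the 50% of genes of lowest level (adjusted p = 0.0496). Over all 20 alternatives the limma adjusted p ran from 0.0394 to 0.315. Fcgr2b and Fcgr3 are known to have closely similar extracellular sequences, and whether their probes read both transcripts was not tested.

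Fcer1g encodes the FcR gamma chain, the signalling partner of the 3 activating receptors. It stood at 12.38, 12.44 and 12.38 in the Ly6C+ F4/80low cells of mice 1, 2 and 3 and at 12.42, 12.40 and 12.39 in the Ly6C- F4/80high cells. All 6 arrays lay within 0.06 of each other, the subsets overlapped, and its mean level was at the 99.9 percentile of all genes. The difference was 0.0044 (SE 0.07, 95% interval -0.15 to 0.16, limma adjusted p = 0.967). At the ends of this interval Fcer1g would be 1.11-fold lower or 1.12-fold higher. Whether values this near the top of the array's range understate a difference was not tested.

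Of the 5 genes, 4 had subsets that did not overlap, beside 48.1% of all genes. The same 4 had 1 direction in all 3 mice, which follows from the lack of overlap, and Fcer1g was higher in 2 of the 3 mice. The spread between arrays of a subset was small for all 5, with standard deviations of 0.03 to 0.08 when pooled over the subsets. These ranked between the 1.11 and 24.2 percentile of all genes.

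**Figure D2:**
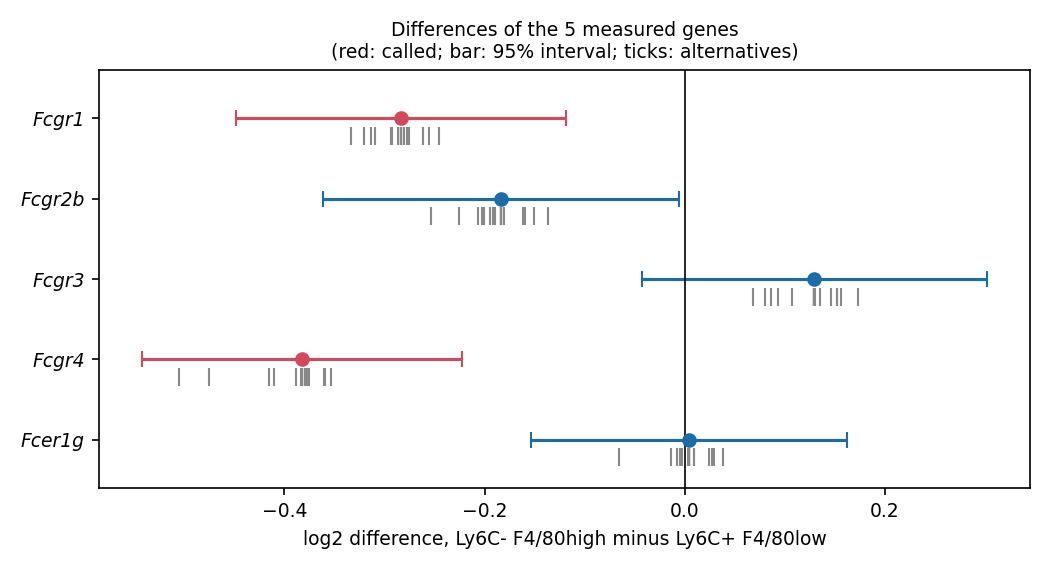
Log2 difference (horizontal axis, the Ly6C+ F4/80low mean subtracted from the Ly6C- F4/80high mean) of the 5 genes, with points for the estimate, bars for the 95% interval, red for called genes, and grey ticks for the 20 alternative analyses. Fcgr1 and Fcgr4 lie below 0, Fcgr3 lies above 0 with an interval that includes it, and the alternatives of Fcer1g fall on both sides of 0.

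The activating receptors were also set against the inhibitory receptor within each array, which removes a shift common to the array. On this scale Fcgr3 gained on Fcgr2b in the Ly6C- F4/80high cells by 0.31 (SE 0.07), or 1.24-fold, with 0.21, 0.28 and 0.45 in mice 1, 2 and 3. Fcgr4 shifted the other way relative to Fcgr2b, by -0.20 (SE 0.07), with -0.22, -0.29 and -0.08 in the same mice. Fcer1g shifted by 0.19 (SE 0.06) relative to Fcgr2b, with 0.21, 0.11 and 0.25. Fcgr1 shifted least, by -0.10 (SE 0.05), with -0.17, -0.13 and 0.0016. In a two-sided exact permutation test over the 3 against 3 arrays the first 3 of these shifts gave p = 0.1, the smallest that this design allows, and Fcgr1 gave p = 0.2. Adjusted over the 4 contrasts the values were 0.133 and 0.2, and this test could not pass 0.05 whatever the values. Relative to Fcgr2b, Fcgr3 was on the positive side and Fcgr4 on the negative side in 3 of 3 mice, which the smallest possible p already implies.

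**Figure D3:**
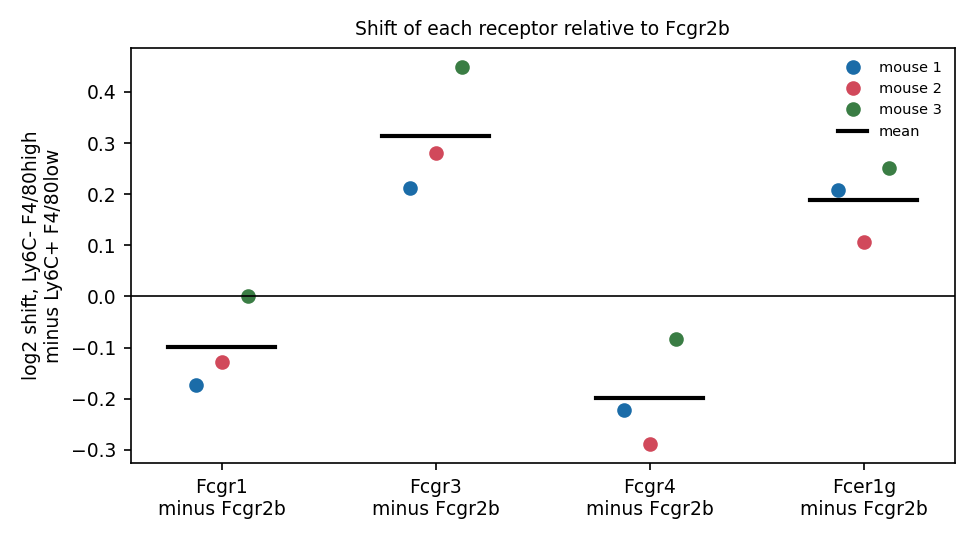
Shift between the subsets (vertical axis, log2, positive where larger in the Ly6C- F4/80high cells) of the within-array difference between each of 4 genes and Fcgr2b, with a coloured point per mouse and a black bar for the mean of 3 mice. All points of Fcgr3 and Fcer1g lie above 0 and all points of Fcgr4 lie below it, while Fcgr1 has 1 mouse at 0.0016.

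Most of the other listed Fc receptors were under background in these cells, while Fcrls was high and differed strongly. Of 13 listed genes, 8 averaged under the background in either subset. They included Fcer1a and Ms4a2, subunits of the IgE receptor of mast cells, and Fcer2a, the IgE receptor of B cells. Fcrls, an Fc receptor-like gene known from microglia and other resident macrophages, stood at 7.96, 8.08 and 8.19 in the Ly6C+ F4/80low cells of mice 1, 2 and 3. It stood at 10.16, 10.20 and 10.33 in the Ly6C- F4/80high cells, far above the other subset on every array. The difference of 2.15 (SE 0.09, limma adjusted p = 2.32e-07) was 4.44-fold and ranked 26 among all genes by size toward the Ly6C- F4/80high cells. Trim21, the antibody receptor of the cytosol, was called lower by a small margin at -0.23 (SE 0.08, limma adjusted p = 0.0470). Its call was lost under 12 of 20 alternatives, with a limma adjusted p of up to 0.224. The remaining 11 genes were not called and differed by -0.25 to 0.14. The list thus had 2 of 13 called, beside 33.8% of all genes, with a median of -0.11.

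Genes that carry the activating signal differed in both directions. Of 30 measured genes 17 were called, 10 of them lower and 7 of them higher in Ly6C- F4/80high cells, beside 33.8% of all genes called. The median over the 30 genes was -0.09. Of the 30 genes 0 averaged under background in both subsets, and of the 9969 genes of higher level 5720 were called. The Src-family kinase genes Fyn and Fgr, whose products phosphorylate ITAMs, differed by -1.39 (SE 0.10, limma adjusted p = 7.57e-06) and -1.17 (SE 0.10, limma adjusted p = 1.47e-05). Prkce, a protein kinase C gene, followed at -1.12 (SE 0.10). Syk, the kinase that docks on the FcR gamma chain, was called lower at -0.28 (SE 0.09, limma adjusted p = 0.0435). That call was lost under 9 of 20 alternatives, with limma adjusted p of up to 0.215. Rasgrp3, an activator of Ras downstream of phospholipase C, was 3.27-fold higher, at 1.71 (SE 0.12, limma adjusted p = 5.08e-06), with 2 of 3 Ly6C+ F4/80low arrays above background. The phosphoinositide kinase gene Pik3cb and the phospholipase gene Plcg1 were higher by 0.66 (SE 0.07) and 0.51 (SE 0.10).

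Genes of the inhibitory route also differed in both directions. Of 23 genes 13 were called, 7 of them higher and 6 lower, beside 33.8% of all genes called, and the median over the list was -0.08. Here too 0 genes averaged under background in both subsets, and of the 9969 genes of higher level 5720 were called. Inpp5d, the phosphatase that Fcgr2b recruits, differed by -0.12 (SE 0.07, limma adjusted p = 0.230), and Ptpn6, the tyrosine phosphatase recruited by many ITIM receptors, by -0.02 (SE 0.11, limma adjusted p = 0.890). Neither was called. The sialic acid receptor gene Siglece and the paired receptor gene Pilra, both inhibitory, differed by -1.90 (SE 0.10, limma adjusted p = 8.28e-07) and -1.31 (SE 0.09). Ptpn22, a phosphatase that acts on Src-family kinases, differed by -0.82 (SE 0.09). Cblb, a ubiquitin ligase that dampens receptor signalling, was 2.04-fold higher at 1.03 (SE 0.08, limma adjusted p = 7.46e-06). The inhibitory receptor genes Cd200r1 and Lair1 were higher by 0.87 (SE 0.09) and 0.87 (SE 0.13).

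In the list of ITAM adaptors and FcR gamma partner receptors every called gene was lower, while the ITAM adaptors Tyrobp and Cd247 were not called. Of 15 measured genes of this list 6 (40%) were called, each of them lower, beside 33.8% of all genes called and 14.3% called lower. Of the 9969 genes of higher level 5720 were called, 1929 of them lower. The median over the list was -0.23. The integrin chain gene Itgam was among those called, and 4 of the 15 averaged under background in both subsets. Clec4b2, a called gene, was 1 of these 4, at 3.83 to 4.28 in the Ly6C+ F4/80low and 3.41 to 3.56 in the Ly6C- F4/80high arrays. Clec4n, which encodes the fungal receptor Dectin-2, stood at 9.83, 9.90 and 9.86 in the Ly6C+ F4/80low cells of mice 1, 2 and 3 and at 7.62, 7.77 and 7.71 in the Ly6C- F4/80high cells. Its difference was -2.16 (SE 0.08, limma adjusted p = 8.37e-08). The difference of Tarm1, an activating myeloid receptor, was -1.72 (SE 0.09, limma adjusted p = 1.08e-06). That of Clec4e, which encodes the mycobacterial glycolipid receptor Mincle, was -1.31 (SE 0.11, limma adjusted p = 1.77e-05). Fcer1g itself differed by 0.0044 in the same arrays. Tyrobp, the other main ITAM adaptor of myeloid cells (DAP12), averaged 11.7 in both subsets, a difference of -0.001 (SE 0.07, limma adjusted p = 0.993). Cd247, the ITAM chain of T and NK cells, averaged 5.31 and 5.47, around the background, and was not called (limma adjusted p = 0.182).

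Genes of the phagocytic cup were called about as often as all genes, weak ones included. Of 40 measured genes 14 (35%) were called, 7 in each direction, beside 33.8% of all genes, and the median over the list was 0.0087. Only 1 of the 40 averaged under background in both subsets, and of the 9969 genes of higher level 5720 were called. Myo1e, a membrane-linked myosin of the cup, was 5.32-fold higher in the Ly6C- F4/80high cells, at 2.41 (SE 0.14, limma adjusted p = 1.52e-06). The phospholipase gene Pld2 was higher by 1.16 (SE 0.08) and the vesicle myosin gene Myo5a by 0.57 (SE 0.07). Marcksl1, Coro1a and Vasp, which bind or organise actin filaments, differed by -0.76 (SE 0.17), -0.54 (SE 0.10) and -0.37 (SE 0.07).

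Genes listed around the endosomal route of FcRn were more often higher than lower, although Fcgrt itself was not analysed here. The list is wider than that route. It also holds the class I peptide-loading genes Tap1 and Tapbp and the late endosomal and lysosomal genes Rab7, Lamp1, Lamp2 and Ctss. Of 24 genes 16 were called, 13 of them higher and 3 lower, beside 19.5% of all genes called higher. Only 1 of the 24 averaged under background in both subsets, and of the 9969 genes of higher level 3791 were called higher. The median over the list was 0.23. B2m, the light chain that FcRn shares with class I molecules, differed by -0.06 (SE 0.07, limma adjusted p = 0.524). Rab4a, of fast recycling, was higher by 0.77 (SE 0.09, limma adjusted p = 9.77e-05). Vps35, of the retromer coat, and Ehd4, of endosomal recycling, were higher by 0.61 (SE 0.08) and 0.52 (SE 0.09). Rab11fip1 and Ehd1, also of recycling endosomes, went the other way at -0.94 (SE 0.09, limma adjusted p = 3.07e-05) and -0.67 (SE 0.08), as did the peptide transporter gene Tap1 at -0.54 (SE 0.12). The count of called genes was 9 without mouse 1 and 10 without mouse 3, against 16 with all mice.

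**Figure D4:**
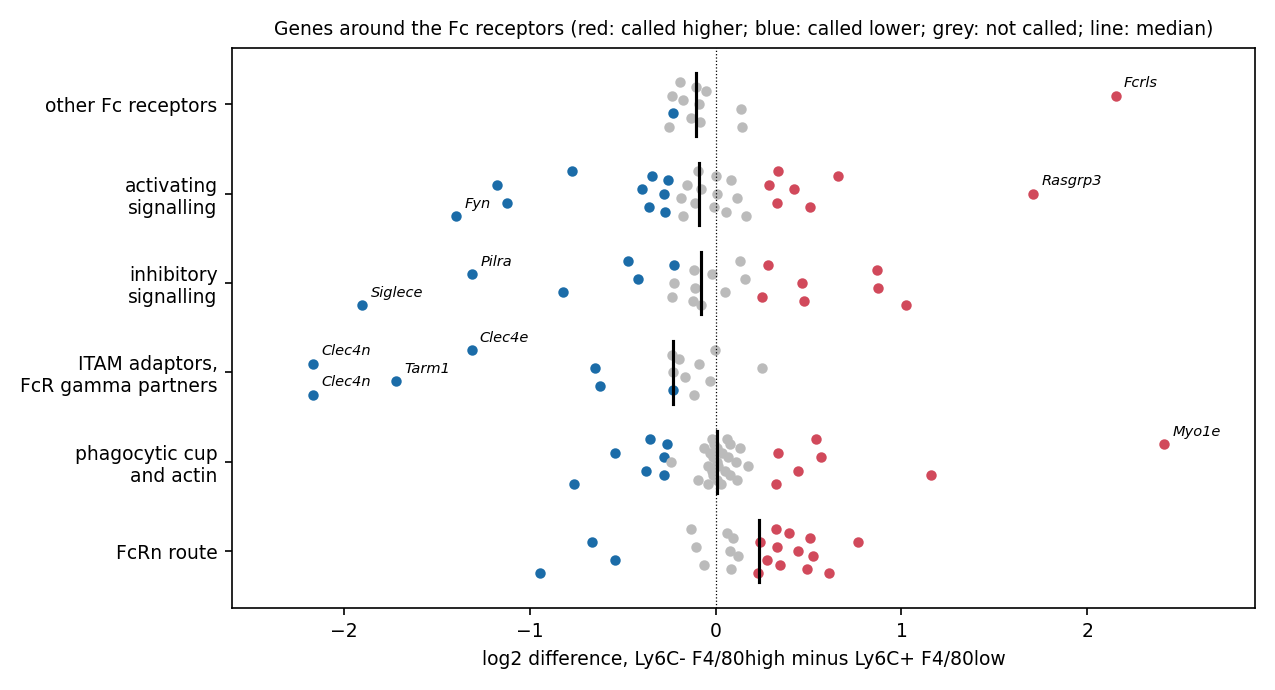
Log2 difference (horizontal axis, the Ly6C+ F4/80low mean subtracted from the Ly6C- F4/80high mean) of each measured gene of 6 lists around the Fc receptors, with red for called higher, blue for called lower, grey for not called and a black line for the list median. All 6 called genes of the list of ITAM adaptors and partner receptors are blue, though Tyrobp and Cd247 are grey. Clec4n is drawn more than once in that list. In the wider FcRn route list 13 genes are red, and Fcrls stands alone among the other Fc receptors.

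Genes were ranked by how closely their level followed each receptor over the 6 arrays, among 2715 genes that varied. The highest Pearson correlations with Fcgr4 were those of Cnnm4 (0.999), Smpdl3b (0.998) and Ttc39c (0.996), which differed by -0.62, -0.71 and -0.56. Those with Fcgr1 were Dna2 (0.997), Il15ra (0.997) and Trim30d (0.995), with differences of -0.55, -0.56 and -1.09. Fcgr2b was closest to Tnfsf10 (0.984), Padi2 (0.973) and P2ry10 (0.971), and Fcgr3 to Kctd12b (0.988), Mrpl19 (0.980) and Ttc30b (0.978). Over 3 against 3 arrays such values can follow the gap between the subsets. Fcer1g had no such gap, and its nearest genes Zfp980 (0.932), Utp18 (0.914) and Olfr1134 (0.850) follow a range of 0.06 between arrays.

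The labelled cell type was checked against marker lists, since several other CD45-positive cells carry Fc receptors. All 12 measured macrophage and monocyte markers were above background on every array, and 9 of them were called, 5 higher and 4 lower. Mertk, a receptor for apoptotic cells, and C1qa, of complement, were higher by 1.57 (SE 0.08) and 1.55 (SE 0.08), while Ccr2, the chemokine receptor of recruited monocytes, was 3.99-fold lower (SE 0.12 on the log2 scale). Ptprc, the gene of CD45, differed by -0.64 (SE 0.07). The summed level of this list was 14.56 to 14.61 in the Ly6C- F4/80high and 14.39 to 14.45 in the Ly6C+ F4/80low arrays, and the part of these markers in the Fcgr1 and Fcgr4 differences was not tested. Of 14 neutrophil markers 5 to 6 were above background on the Ly6C- F4/80high arrays and 7 on the Ly6C+ F4/80low arrays, while Ly6g and Cxcr2, which define these cells, were under it on all 6. S100a8, Csf3r, Mmp8, Mmp9 and Lcn2 of this list were above it on all 6. The summed level of this list was 10.92 to 10.97 against 10.77 to 10.84 on the log2 scale, and in it Lcn2 differed by -1.78 (SE 0.14) while Mmp8 was higher by 0.73. The NK cell list had 1 of 10 markers above background on the Ly6C- F4/80high arrays and 1 to 2 on the others, with a summed level of 7.53 to 7.71 against 7.79 to 7.95. The summed level of 11 mast cell and basophil markers was lower in the Ly6C- F4/80high cells, at 8.06 to 8.21 against 9.08 to 9.36, with 2 and 3 above background. Hdc in it, the histamine-forming enzyme, differed by -2.38 (SE 0.14), and Kit and Cma1 were under background on all 6 arrays. The summed level of 10 dendritic cell markers was 8.59 to 8.66 against 9.14 to 9.22, with 2 to 3 and 6 above background, and Cd209a differed by -1.19 (SE 0.08). The summed level of B cell markers was higher, at 8.92 to 9.11 against 8.45 to 8.49, with 2 of 8 and 2 to 4 of 8 above background. Cd22 and Cd79b were higher by 1.38 (SE 0.10) and 0.53, the other 6 were not called, and the median over this list was -0.09. The sums of T cell markers overlapped, at 8.63 to 8.66 against 8.60 to 8.79, with 3 to 4 and 4 to 6 of 8 above background. Those of 6 eosinophil markers were 7.54 to 7.83 against 7.82 to 7.94, with 1 to 2 above background in each subset. Muscle and stroma markers were at 9.45 to 9.56 against 9.90 to 9.98, with 8 and 9 to 10 of 11 above background, and Cdh5 differed by -1.51 (SE 0.10). The mast cell, dendritic cell, NK cell and stroma sums were thus lower, as Fcgr1 and Fcgr4 were. Such sums weigh genes of high level most. Called lower were 4 of 11 mast cell and basophil, 6 of 10 dendritic cell, 2 of 10 NK cell and 7 of 11 muscle and stroma markers. The muscle genes Ckm, Acta1, Myh4 and Myod1 were not called. Among the lists of lower sum, 9 of 10 NK cell and 8 of 11 mast cell and basophil markers averaged under background in both subsets. So did 4 of 10 dendritic cell and 1 of 11 muscle and stroma markers. The part of these markers in the Fcgr1 and Fcgr4 differences was not tested either.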

How the data were processed

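Total RNA of 6 sorted cell samples was labelled and hybridised to Affymetrix expression arrays, 150 ng per array, per the labels' protocols. The values are log2 expression values that the authors deposited after RMA, per the submitters' processing notes. The RMA software and its version were not given in the sources used here. This method understates differences of weak probe sets.

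Of 35556 probe sets 21789 had 1 gene symbol and 1621 had several. Each of 19938 symbols was represented by its probe set of highest mean, and genes without such a probe set were not analysed here. The subsets were compared by limma 3.58.1 (R 4.3.3; lmFit and eBayes, two-sided), with Benjamini-Hochberg adjustment and no filter, after the script was tested on simulated data. The members and lists were chosen with earlier results of these data known. The 6 pathway lists hold 159 entries, of which 146 were measured. Clec4n was entered in its list under its symbol and under a synonym, and the gene counts take it once. Apart from all members, the genes named are the 3 largest called differences of each list in each direction, a fixed set of adaptors and phosphatases, the 3 nearest patterns of each member, and up to 3 called markers per list that differ by at least 1 above background. Other marker genes, and the Fc receptors given as under background, were picked after their values were seen. Each animal gave both subsets, per the labels, which pairs the arrays, although deviations of paired arrays correlated at 0.03, -0.08 and 0.09. No source states a paired test, and the mouse block was an alternative. The others were the mouse as a random effect, 3 scalings, 2 filters on level, averaging over probe sets, testing every probe set, another prior, weighting arrays, and omitting each array or mouse in turn.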

Additional observations from a re-analysis of the deposited data

How the results depend on the processing

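With the mouse as a replicate block no call of the 5 Fc receptor genes changed (limma adjusted p = 0.0298 for Fcgr1, 0.00933 for Fcgr4 and 0.110 for Fcgr2b), and the shifts relative to Fcgr2b, paired by mouse, cannot go below p = 0.25 in an exact sign-flip test. Fcgr4 was called and Fcgr3 was not under all 20 alternatives. Fcgr1 lost its call in 3, each without 1 mouse, with differences of -0.31 to -0.25 over all samples left out. Without 1 mouse 1 of 5 members was called, and without single arrays or mice the count was 1 to 2. Fcgr2b was called in 3 alternatives, at -0.25 after cyclic loess and at -0.18 both with a trended robust prior and without the lower 50% of genes. Fcer1g changed sign after quantile normalization (-0.065, limma adjusted p = 0.527) and over the left-out samples ran from -0.013 to 0.029. Its shift relative to Fcgr2b was 0.29 after cyclic loess. Among other Fc receptors 1 gene, in place of 2, was called with the replicate block, with a common median, and with all probe sets tested, and 1 to 3 without single samples. Over the left-out samples the called genes numbered 10 to 16 in the activating list and 9 to 15 in the FcRn list. Tyrobp and Ptpn6, both near 0, changed sign in 5 and 4 alternatives, to 0.022 and 0.000948 with a common median, and over the left-out samples they ran from -0.033 to 0.031 and from -0.097 to 0.098; neither was called in any of these. The cause of these changes was not tested. The counts of the other 3 lists stayed within 1.5 times. The 3 arrays per subset limit all of these tests, and arrays give no read depth.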

Other observations

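Fcgr2b, Fcgr4, Fcgr3 and Fcer1g lie near each other on mouse chromosome 1, in this order in the RefSeq table of GRCm38.p6. Of the 11 genes tested from Fcgr2b to Fcer1g, 4 were called higher in the Ly6C- F4/80high cells, 1 lower and 6 not called, beside 19.5% and 14.3% of all genes called higher and lower. The called lower gene was Fcgr4. The 4 higher genes lie between Fcgr3 and Fcer1g and were picked for naming once their values were known. Pcp4l1, a relative of the calmodulin regulator gene Pcp4, was higher by 1.91 (SE 0.11, limma adjusted p = 2.2e-06). Sdhc, of respiratory complex II, was higher by 0.43 (SE 0.08, limma adjusted p = 0.00345), Cfap126, of cilia, by 0.42 (SE 0.09) and Tomm40l, of the mitochondrial outer membrane, by 0.39 (SE 0.08).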
